A study of Saccharomyces cerevisiae with 18 samples.

Results

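The 37 genes described here act in nucleotide excision repair, mismatch repair, recombination repair and the DNA damage checkpoint of *Saccharomyces cerevisiae*. They were taken from a list of gene names, each measured by at least 1 probe set that the array's annotation gives to that gene alone, and they are 37 of the 5656 genes measured in this way. All 37 listed genes had such a probe set. By role they comprise 6 genes of damage recognition and 4 of incision and helicase function in excision repair, the photolyase gene *PHR1*, 3 genes of the MRX complex, 5 of strand exchange, 4 encoding recombination helicases and a nuclease, 3 of mismatch repair, 4 checkpoint kinase genes, 5 genes of the checkpoint clamp, its loader and an adaptor, and 2 damage-inducible genes.

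The measurements come from 18 Affymetrix arrays (Yeast Genome S98), on which 6 haploid strains were each represented by 3 biological replicates. WT/pMAG carried pYES-MAG, which drives the 3-methyladenine DNA glycosylase gene *MAG1* from a galactose-induced promoter. Δapn1 carried a *HIS3* insertion in *APN1*, the gene of the major AP endonuclease, together with the empty pYES vector. Δapn1/pMAG carried the insertion and pYES-MAG, Δapn1/pAPN1 carried the insertion, the *APN1* plasmid pYepAPN1-2A and empty pYES, and Δapn1/pMAG/pAPN1 carried the insertion and both expressing plasmids. The wild type strain carried empty pYES. All strains descend from a MATa his3 leu2 ura3 trp1 can1 GAL+ parent, BGY111, and all held a pYES plasmid. All were grown in galactose medium lacking uracil to mid-log phase, so galactose and pYES were common to tested and control cultures. Only Δapn1/pAPN1 and Δapn1/pMAG/pAPN1 carried pYepAPN1-2A, and no strain with an empty version of it is described. *APN1* and the rest of that plasmid therefore cannot be told apart. How many transformants each strain stands for is not given in the sources used here.

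Excision repair removes bulky lesions by cutting the damaged strand on both sides of the lesion, mismatch repair removes errors left by replication, and recombination repair copies lost sequence from an intact partner. The checkpoint detects single-stranded or broken DNA through the kinases Mec1 and Tel1, which act through Rad53 and Chk1 to delay the cell cycle and to switch on a set of target genes, including those of ribonucleotide reductase. Base excision repair, the pathway altered in these strains, yields abasic sites and strand breaks as intermediates, which these other pathways can also process. Many repair proteins in yeast are controlled after transcription, by phosphorylation or assembly, and expression arrays do not register this.

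The values are RMA signals on the log2 scale, so a difference of 1 means 2-fold. The checks of the strains on these arrays were uneven. The *MAG1* signal on the 3 arrays was 6.14, 1.48 and 6.91 in WT/pMAG, 7.17, 2.88 and 1.82 in Δapn1/pMAG, and 3.80, 2.83 and 1.82 in Δapn1/pMAG/pAPN1, against 0.89 to 1.11 in wild type. The *APN1* signal was 2.81 to 3.15 in Δapn1, 3.64 to 4.38 in Δapn1/pMAG, 7.27 to 7.96 in Δapn1/pAPN1 and 4.57 to 7.48 in Δapn1/pMAG/pAPN1, against 1.14 to 1.88 in wild type. The insertion strains thus had more *APN1* signal than wild type, and where the probes lie relative to the insertion is not given in the sources used here, so this signal does not check the disruption. Replicate 1 of Δapn1/pMAG stood apart, where the 5′ minus the 3′ signal of *ACT1* was −7.78, against −1.82 to −0.65 on the other 17 arrays. Replicate 1 of Δapn1/pMAG/pAPN1 was low in *APN1* and *LEU2*, both high in its other replicates and in Δapn1/pAPN1, with an *APN1* signal of 4.57, against 7.48 and 7.26 in its other 2 replicates, and a *LEU2* signal of 5.94, against 9.95 and 9.15. These 2 arrays were doubted. Counts of members and of checkpoint targets past the thresholds are also given without them, as are the *MSH6* and *HUG1* differences in Δapn1/pMAG/pAPN1. Other differences in these 2 strains are given with them included. The arrays also fell into 7 with high and 11 with low signal for noncoding RNA, a split that no label names. The high set held replicates 1 and 3 of WT/pMAG, 2 and 3 of Δapn1, 1 of Δapn1/pMAG, and 2 and 3 of wild type. The pYES-MAG arrays in the high set had *MAG1* signals of 6.14, 6.91 and 7.17, and those in the low set 1.48 to 3.80. Among pYES-MAG arrays, array set and *MAG1* signal therefore cannot be told apart. Of 6 genes typical of MATa cells, *MFA1*, *MFA2*, *STE2*, *BAR1* and *AGA2* exceeded every unspiked control on all 18 arrays, while *STE6* did so on 7. Of 4 genes typical of the opposite mating type, *SAG1* did so on 18, *STE3* on 13, MF(ALPHA)2 on 9 and MF(ALPHA)1 on 3.

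Most of the 37 genes gave very low signal. Controls for mouse and *Bacillus subtilis* RNA, for which no spike is described, gave a measure of signal without a matching transcript. The 19 such probe sets ranged from 0.30 to 1.88 with a median of 0.95, and the highest of them reached 1.34 to 1.88 on the 18 arrays. *RAD23* and *RAD52* alone exceeded the highest control on all 18 arrays, which is 2 of 37 members (5.41%), compared with 2487 of all 5656 genes (44.0%). At the other end, 18 members (48.6%) exceeded the highest control on no array, compared with 932 genes overall (16.5%). The mean over all arrays lay at or below the highest control mean of 1.65 for 33 of the 37 members (89.2%), and the median of the member means was 1.28, against 2.07 over all genes. The 4 members above it were *RAD23* (3.23), *RAD52* (3.05), *RAD57* (1.79) and *RAD2* (1.69). Levels of different genes cannot be ranked finely from these signals, since probes differ in affinity, and a decrease in a gene that is already at control level could not have been measured.

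**Figure D1:**
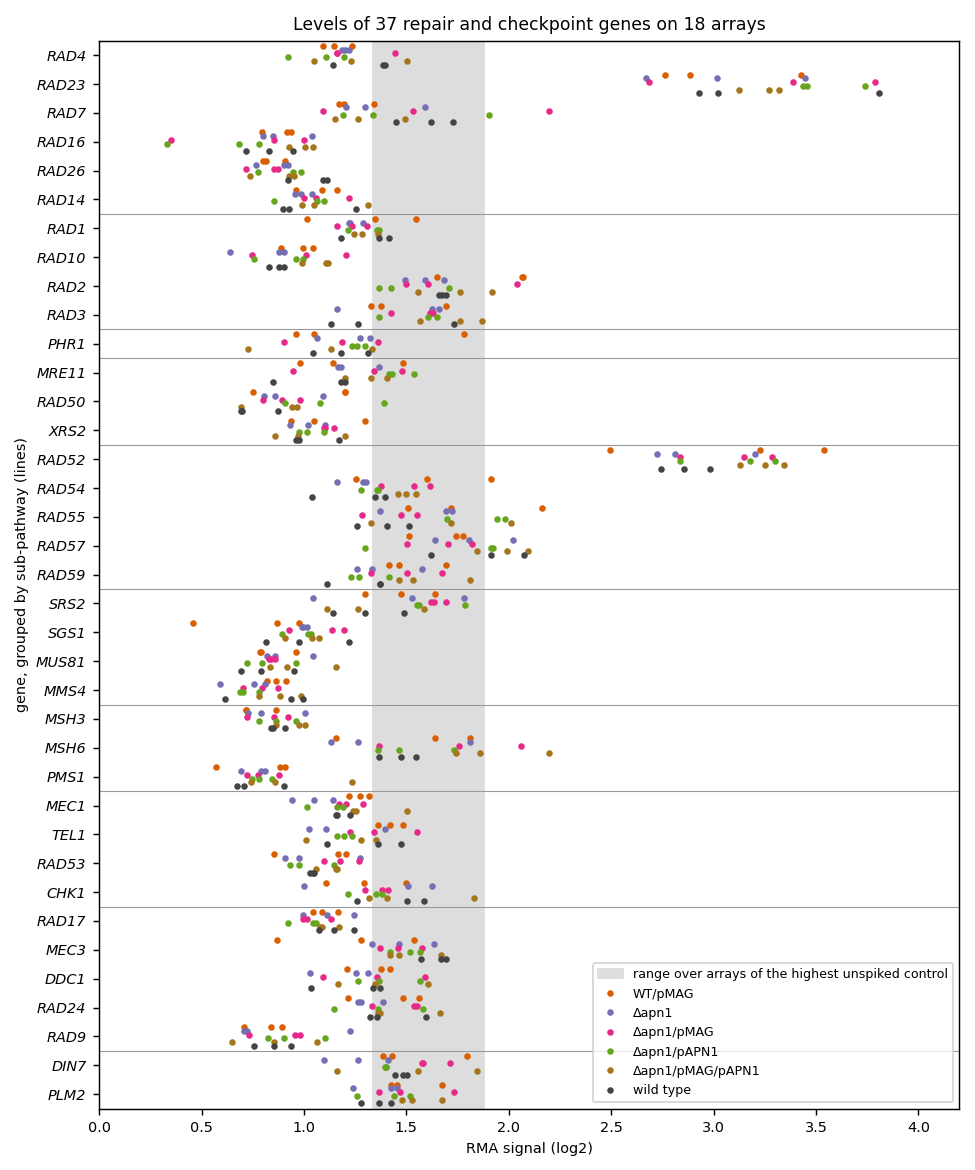
RMA signal on the log2 scale of each of the 37 genes (rows, with lines between sub-pathways) on the 18 arrays, 1 point per array coloured by strain; the grey band runs from the lowest to the highest value over arrays (1.34 to 1.88) of the brightest unspiked control. *RAD23* and *RAD52* lie to the right of the band on every array, and 18 members exceed the highest control of the same array on none.

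In none of the 5 strains did any of the 37 members meet the study's thresholds, which ask for at least 1.5-fold together with an unadjusted p below 0.05, and none had an adjusted p below 0.05 (limma, adjusted by Benjamini-Hochberg over 6504 probe sets). Among all 5656 genes the same thresholds were met by 6.47% in WT/pMAG, 0.442% in Δapn1, 3.66% in Δapn1/pMAG, 3.59% in Δapn1/pAPN1 and 3.75% in Δapn1/pMAG/pAPN1, and 722 genes (12.8%) met them in at least 1 strain. An adjusted p below 0.05 was reached by 0.106%, 0%, 0.106%, 0.0177% and 0.0177% of all genes in the same order. On the unadjusted p alone, limma put 3 members under 0.05 in WT/pMAG (11.1% of all genes), 0 in Δapn1 (1.13%), 1 in Δapn1/pMAG (7.41%), 3 in Δapn1/pAPN1 (7.11%) and 2 in Δapn1/pMAG/pAPN1 (7.9%). An analysis of variance, the test the methods name, put 3, 1, 1, 3 and 1 there. It was run here on each probe set's own variance over all 6 strains, a detail the methods do not give. Below it is called the methods' analysis of variance. The moderated F test across the 6 strains gave no member an unadjusted p under 0.05, the smallest being 0.125 for *RAD55* (adjusted p = 0.648), whereas 10.2% of all genes were under 0.05. The methods' analysis of variance gave 1 member. Arrays that did not overlap those of wild type were seen for 4 members in WT/pMAG (13.9% of all genes), 3 in Δapn1 (5.87%), 4 in Δapn1/pMAG (11.2%), 7 in Δapn1/pAPN1 (18.1%) and 8 in Δapn1/pMAG/pAPN1 (13.8%), without regard to direction. In WT/pMAG these were *RAD59*, higher, and *RAD7*, *RAD26* and *MEC3*, lower, in Δapn1 they were *RAD26*, *MEC1* and *DIN7*, all lower, and in Δapn1/pMAG they were *SRS2*, *RAD53* and *DIN7*, higher, and *RAD26*, lower. In Δapn1/pMAG/pAPN1 they were *RAD10*, *RAD52*, *RAD54*, *RAD59*, *MSH6*, *MEC1*, *RAD53* and *PLM2*, all higher. *MEC1* was read here from 1 of its 9 probe sets. Its other probe sets were all lower in Δapn1/pMAG/pAPN1 and went both ways in Δapn1. All 5 comparisons share the 3 wild type arrays, so an unusual wild type value enters each of them.

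The low signal bears on how these counts can be read. Of the 2063 genes whose mean was no higher than the highest control mean, 0.921% met the thresholds in WT/pMAG, 0.145% in Δapn1, 0.291% in Δapn1/pMAG, 1.02% in Δapn1/pAPN1 and 0.388% in Δapn1/pMAG/pAPN1. For the 3593 genes above it, the shares were 9.66%, 0.612%, 5.59%, 5.07% and 5.68%. Since 33 of the 37 members belong to the dim class, a count of 0 is close to what that class gave as a whole. These are whole-culture RNA measurements, so fewer cells transcribing a gene and less transcript per cell cannot be told apart.

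The sizes of the differences were small throughout. Over the 5 strains there were 185 member differences from wild type, of which 172 were under 0.3 in size, and the largest was 0.48 (*RAD55* in Δapn1/pAPN1). The median difference over the 37 members was 0.05 in WT/pMAG, −0.03 in Δapn1, 0.04 in Δapn1/pMAG, −0.01 in Δapn1/pAPN1 and 0.08 in Δapn1/pMAG/pAPN1, beside 0.00, −0.01, 0.02, 0.03 and 0.04 over all genes. The 95% interval of the difference lay wholly within 1.5-fold either way for 29 of 37 members in WT/pMAG, 34 in Δapn1, 33 in Δapn1/pMAG, 30 in Δapn1/pAPN1 and 30 in Δapn1/pMAG/pAPN1, and for 46.9% to 57.4% of all genes. In the dim class of 2063 genes the shares were 79.3%, 85.8%, 78.7%, 78.1% and 75.9% in the same order of strains, so narrow intervals were common at this signal level. These intervals refer to array signal, and how signal follows transcript near the control level was not tested. With 3 arrays per strain, the median standard error of a member difference was 0.15.

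**Figure D2:**
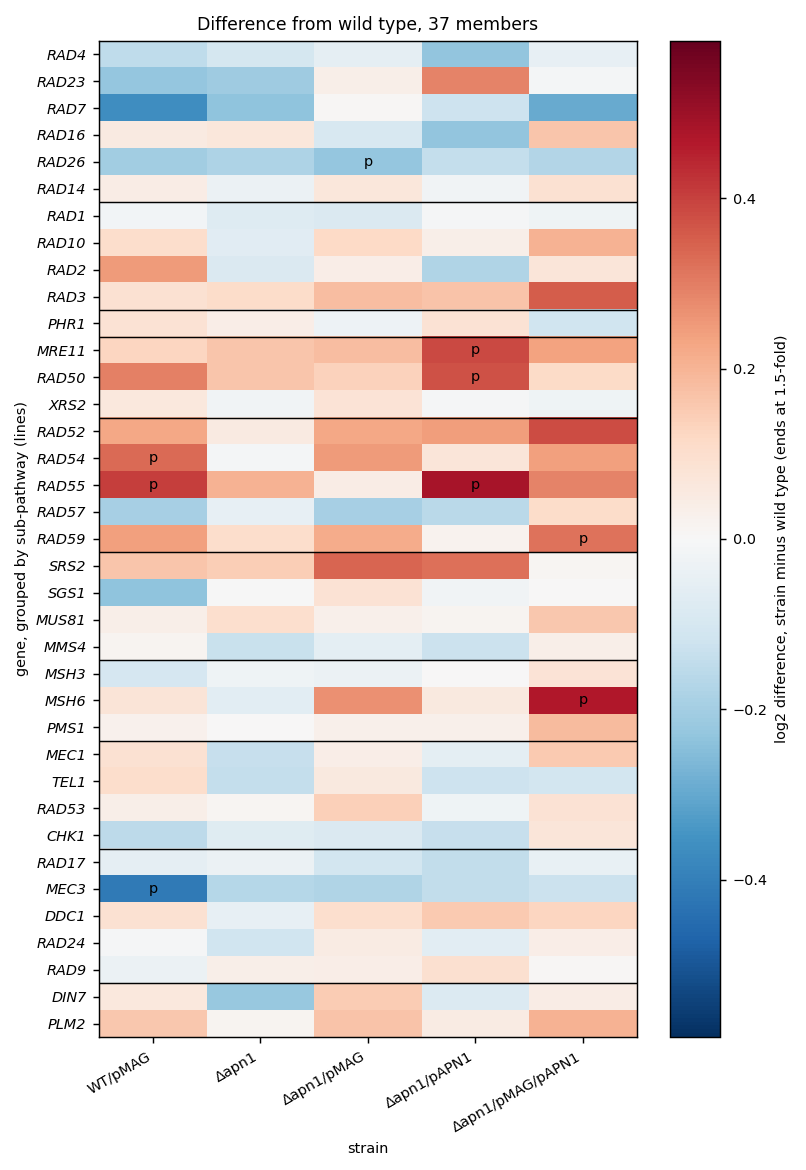
Difference in log2 RMA signal between each strain (columns) and wild type for the 37 genes (rows, with lines between sub-pathways); the colour scale ends at a 1.5-fold change, and p marks an unadjusted p under 0.05 in limma. The 9 marked cells lie between −0.42 and 0.48, none reaches the end of the scale, and no gene has more than 2 marks.

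Among the damage recognition genes, differences ran from −0.36 to 0.29 over the 5 strains. *RAD23* encodes a ubiquitin-like partner of Rad4 that also delivers proteins to the proteasome, and it was chosen for description after its values had been seen, as the brightest member. *RAD23* read 3.42, 2.76 and 2.88 in WT/pMAG, 3.45, 3.02 and 2.67 in Δapn1, 2.68, 3.39 and 3.79 in Δapn1/pMAG, 3.74, 3.43 and 3.45 in Δapn1/pAPN1, and 3.27, 3.32 and 3.12 in Δapn1/pMAG/pAPN1, against 3.81, 2.93 and 3.02 in wild type. The wild type arrays spanned 2.93 to 3.81 of a full range of 2.67 to 3.81, and every strain overlapped them. Its difference in WT/pMAG was −0.23, with a 95% interval of −0.84 to 0.39, so a decrease of 1.5-fold lay within the interval.

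*RAD26* encodes the ATPase of transcription-coupled repair. It read 0.82, 0.91 and 0.80 in WT/pMAG, 0.92, 0.90 and 0.76 in Δapn1, 0.87, 0.71 and 0.86 in Δapn1/pMAG, 0.98, 0.77 and 0.95 in Δapn1/pAPN1, and 0.95, 0.74 and 0.93 in Δapn1/pMAG/pAPN1, against 1.09, 1.11 and 0.92 in wild type. All 3 arrays were below all wild type arrays in WT/pMAG, Δapn1 and Δapn1/pMAG, and the difference in Δapn1/pMAG was −0.23 (95% interval −0.45 to −0.00, limma unadjusted p = 0.0487, adjusted p = 0.707). Every one of these values lies at the level of the controls. *RAD16*, the ATPase that works with Rad7 in silent chromatin and non-transcribed DNA, averaged 0.74 ± 0.34 in Δapn1/pMAG and 0.60 ± 0.24 in Δapn1/pAPN1, and 0.83 to 0.99 in the other 4 strains (SD, n = 3). *RAD7* itself read 1.17, 1.20 and 1.34 in WT/pMAG against 1.45, 1.73 and 1.62 in wild type, without overlap, yet the interval of its difference of −0.36 ran from −0.86 to 0.14. Strain means ran from 1.07 to 1.31 for *RAD4*, whose product binds distorted DNA, and from 0.99 to 1.12 for *RAD14*, the counterpart of human XPA.

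Of the incision nucleases, *RAD2*, the counterpart of human XPG, averaged 1.93 ± 0.24 in WT/pMAG, 1.59 ± 0.10 in Δapn1, 1.71 ± 0.29 in Δapn1/pMAG, 1.5 ± 0.18 in Δapn1/pAPN1 and 1.74 ± 0.18 in Δapn1/pMAG/pAPN1, against 1.67 ± 0.02 in wild type (SD, n = 3 each). *RAD10*, which forms the second nuclease with Rad1, averaged 0.81 to 1.07 in the 6 strains. Its 3 arrays in Δapn1/pMAG/pAPN1 (1.11, 1.12 and 0.99) all lay above those of wild type (0.83, 0.88 and 0.90), with a difference of 0.20 and an interval of −0.06 to 0.47. The difference did not pass the test (limma unadjusted p = 0.127). *RAD1* had strain means of 1.24 to 1.32, and *RAD3*, the TFIIH helicase that opens the DNA, means of 1.38 to 1.73, with its largest difference, 0.36 (−0.02 to 0.73), in Δapn1/pMAG/pAPN1. *PHR1* encodes the photolyase, which reverses ultraviolet dimers with light and responds to many DNA-damaging agents in yeast. Its strain means ran from 1.06 to 1.26, and its differences from −0.12 to 0.09 with intervals no wider than −0.55 to 0.52.

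The MRX complex binds and trims DNA ends. *MRE11*, its nuclease subunit, read 1.14, 1.48 and 0.98 in WT/pMAG, 1.18, 1.17 and 1.37 in Δapn1, 0.95, 1.34 and 1.48 in Δapn1/pMAG, 1.43, 1.41 and 1.54 in Δapn1/pAPN1, and 1.20, 1.33 and 1.41 in Δapn1/pMAG/pAPN1, against 0.85, 1.20 and 1.18 in wild type. *RAD50*, its ATPase, read 0.91, 1.08 and 1.39 in Δapn1/pAPN1 against 0.69, 0.70 and 0.88 in wild type. In Δapn1/pAPN1 both genes therefore had all 3 arrays above wild type, with differences of 0.38 (95% interval 0.05 to 0.72) for *MRE11* and 0.37 (0.04 to 0.70) for *RAD50*, and adjusted p of 0.679 for each (limma). *XRS2*, the third subunit, differed by −0.01 there and had strain means of 1.01 to 1.11. Without replicate 1 of wild type, the *MRE11* difference was 0.27, and without replicate 3 of Δapn1/pAPN1 the *RAD50* difference was 0.24. The *RAD50* value also rests on 1 of its 6 probe sets, and it was 0.13 when the 6 were averaged. Neither *MRE11* nor *RAD50* exceeded the highest control of the same array on any array. The 7 members without overlap in this strain were *MRE11*, *RAD50*, *RAD55* and *SRS2*, all higher, and *RAD17*, *MEC3* and *DIN7*, all lower.

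The strand exchange genes held the largest difference. *RAD55* encodes a protein that forms a heterodimer with Rad57 and promotes strand exchange. It read 1.51, 1.72 and 2.16 in WT/pMAG, 1.37, 1.69 and 1.73 in Δapn1, 1.28, 1.47 and 1.55 in Δapn1/pMAG, 1.70, 1.98 and 1.94 in Δapn1/pAPN1, and 1.33, 2.01 and 1.72 in Δapn1/pMAG/pAPN1, against 1.26, 1.51 and 1.41 in wild type. Only the Δapn1/pAPN1 arrays were all above wild type, by 0.48 on average (95% interval 0.08 to 0.88, limma unadjusted p = 0.0221, adjusted p = 0.663). In WT/pMAG the difference was 0.40 (0.00 to 0.80), and 0.22 without replicate 3 of that strain. Its partner *RAD57* had 1.92, 1.30 and 1.91 in Δapn1/pAPN1 against 2.08, 1.92 and 1.62 in wild type, a difference of −0.16 (−0.54 to 0.22).

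*RAD54* encodes a DNA translocase that acts in strand invasion. It read 1.92, 1.25 and 1.60 in WT/pMAG, 1.31, 1.29 and 1.16 in Δapn1, 1.38, 1.62 and 1.54 in Δapn1/pMAG, 1.36, 1.36 and 1.28 in Δapn1/pAPN1, and 1.46, 1.5 and 1.54 in Δapn1/pMAG/pAPN1, against 1.40, 1.35 and 1.04 in wild type. The strain means of *RAD54* were 1.5 to 1.59 in the 3 strains with pYES-MAG and 1.25 to 1.33 in the 3 without it. In WT/pMAG the difference was 0.33 (95% interval 0.02 to 0.64, limma unadjusted p = 0.0408, adjusted p = 0.449). That value depends on replicate 1 of WT/pMAG, without which it was 0.17. Within the array set with high noncoding RNA signal the difference was 0.57 over 2 arrays against 2, and within the low set it was −0.14, for 1 array against 1, so its sign differed between the sets. The WT/pMAG arrays of the 2 sets also differed in *MAG1* signal.

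*RAD52*, the recombination mediator, was also chosen after its values had been seen because its signal was well above the controls. It read 3.54, 3.23 and 2.50 in WT/pMAG, 3.20, 2.81 and 2.72 in Δapn1, 2.84, 3.15 and 3.28 in Δapn1/pMAG, 2.84, 3.30 and 3.18 in Δapn1/pAPN1, and 3.25, 3.13 and 3.34 in Δapn1/pMAG/pAPN1, against 2.86, 2.98 and 2.75 in wild type. The arrays of Δapn1/pMAG/pAPN1 all exceeded those of wild type, with a difference of 0.38 whose interval of −0.09 to 0.86 included 0. *RAD59*, a strand annealing protein related to Rad52, read 1.53, 1.81 and 1.46 in Δapn1/pMAG/pAPN1 against 1.37, 1.11 and 1.37 in wild type, a difference of 0.32 (0.02 to 0.61, limma unadjusted p = 0.0378, adjusted p = 0.639).

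**Figure D3:**
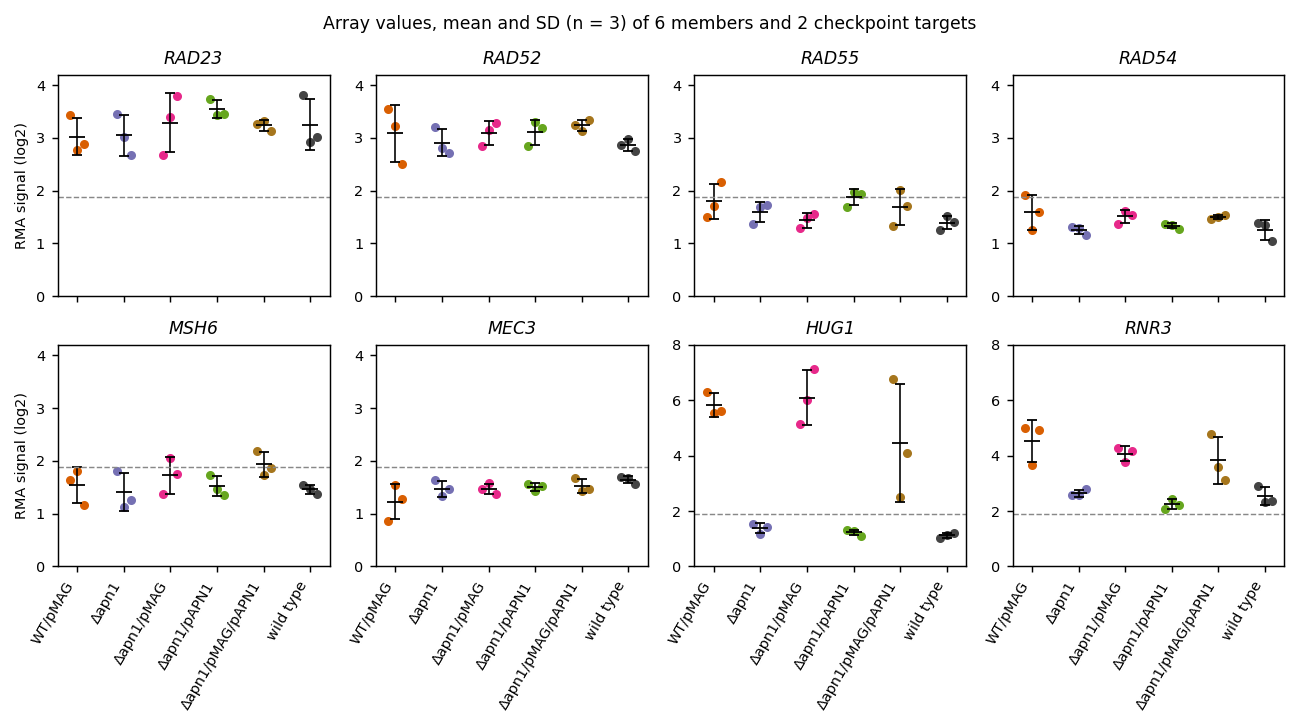
RMA signal on the log2 scale on each array (points), with the strain mean and SD (n = 3), for *RAD23*, *RAD52*, *RAD55*, *RAD54*, *MSH6* and *MEC3* and for the checkpoint targets *HUG1* and *RNR3*, whose panels have a longer axis; the dashed line is the highest unspiked control value on any array (1.88). Among the member panels, every strain overlaps wild type for *RAD23* alone, while the Δapn1/pMAG/pAPN1 arrays lie above wild type for *RAD52*, *RAD54* and *MSH6*; *HUG1* lies between 2.51 and 7.13 in the 3 strains with pYES-MAG and between 1.03 and 1.53 in the 3 without it.

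Among the recombination helicases and nuclease, *SRS2* encodes a helicase that restrains recombination, and *SGS1* the yeast RecQ helicase. *SRS2* had 1.63, 1.69 and 1.62 in Δapn1/pMAG and 1.79, 1.55 and 1.56 in Δapn1/pAPN1, against 1.30, 1.14 and 1.49 in wild type. Neither strain overlapped wild type, and the differences of 0.34 (−0.04 to 0.72) and 0.32 (−0.05 to 0.70) did not pass the test. They come from 1 of the 6 *SRS2* probe sets, and the other 5 gave −0.07 to 0.28 in Δapn1/pMAG and −0.05 to 0.49 in Δapn1/pAPN1. *SGS1* had strain means of 0.77 to 1.09. *MUS81* and *MMS4*, the subunits of a structure-specific nuclease, stayed at 1.16 or below on every array.

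*MSH6* encodes a protein that recognizes base mismatches. It read 1.64, 1.81 and 1.16 in WT/pMAG, 1.81, 1.13 and 1.26 in Δapn1, 1.37, 2.06 and 1.76 in Δapn1/pMAG, 1.73, 1.47 and 1.36 in Δapn1/pAPN1, and 2.20, 1.74 and 1.86 in Δapn1/pMAG/pAPN1, against 1.55, 1.47 and 1.37 in wild type. The Δapn1/pMAG/pAPN1 arrays were all above wild type, by 0.47 (95% interval 0.00 to 0.94, limma unadjusted p = 0.0488, adjusted p = 0.656). The highest value, 2.20, came from the doubted replicate 1, without which the difference was 0.34. *MSH3*, which recognizes larger loops, differed by −0.10 to 0.08 across the 5 strains, with no interval wider than −0.33 to 0.31. *PMS1*, a MutL subunit, had strain means of 0.76 to 0.95.

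The checkpoint kinase genes differed from wild type by −0.15 to 0.15 over the 5 strains. With each gene read from 1 probe set, this was the narrowest span of any sub-pathway with more than 1 gene. *MEC1*, the counterpart of human ATR, averaged 1.27 ± 0.05 in WT/pMAG, 1.05 ± 0.10 in Δapn1, 1.22 ± 0.06 in Δapn1/pMAG, 1.12 ± 0.09 in Δapn1/pAPN1 and 1.33 ± 0.15 in Δapn1/pMAG/pAPN1, against 1.18 ± 0.04 in wild type (SD, n = 3 each). *TEL1*, the counterpart of ATM, averaged 1.42 ± 0.06, 1.18 ± 0.20, 1.37 ± 0.17, 1.20 ± 0.04 and 1.21 ± 0.18 in the same order, against 1.32 ± 0.18 in wild type. The intervals of these *MEC1* and *TEL1* differences lay within 1.5-fold. The *MEC1* values come from 1 of its 9 probe sets, and the others gave −0.42 (in Δapn1/pMAG) to 0.22 (in WT/pMAG). In Δapn1/pMAG/pAPN1 the others were all lower than wild type, by −0.32 to −0.06, where the chosen probe set gave 0.15. In Δapn1 they gave −0.27 to 0.20. *RAD53* and *CHK1*, the effector kinases, had strain means of 1.02 to 1.18 and 1.30 to 1.52.

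Of the clamp, loader and adaptor genes, *MEC3* had the smallest p of any member against wild type. Mec3 forms a ring with Rad17 and Ddc1 that is placed on damaged DNA by Rad24 and activates Mec1. *MEC3* read 0.87, 1.54 and 1.28 in WT/pMAG, 1.63, 1.33 and 1.46 in Δapn1, 1.46, 1.58 and 1.37 in Δapn1/pMAG, 1.57, 1.42 and 1.52 in Δapn1/pAPN1, and 1.67, 1.42 and 1.46 in Δapn1/pMAG/pAPN1, against 1.69, 1.67 and 1.57 in wild type. The WT/pMAG arrays all lay below wild type, by 0.42 on average, a difference of −0.42 (95% interval −0.73 to −0.10, limma unadjusted p = 0.0134, adjusted p = 0.341). Without replicate 1 of WT/pMAG it was −0.24, and within the high and low array sets it was −0.55 and −0.16. The WT/pMAG arrays of these sets also differed in *MAG1* signal. *RAD17* differed by −0.15 to −0.04 across the 5 strains. Strain means were 1.20 to 1.40 for *DDC1* and 1.31 to 1.47 for *RAD24*, and *RAD9*, the adaptor that carries the signal to Rad53, had strain means of 0.81 to 0.94.

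Neither damage-inducible member met the thresholds. *DIN7*, a mitochondrial nuclease gene induced by DNA damage, read 1.58, 1.58 and 1.71 in Δapn1/pMAG and 1.41, 1.27 and 1.10 in Δapn1, and the effect of pYES-MAG in the null strain was 0.37 (0.03 to 0.70, limma unadjusted p = 0.0327, adjusted p = 0.565). In this comparison 4.1% of all genes met the thresholds and 8.57% had an unadjusted p under 0.05. Set against wild type (1.44, 1.49 and 1.5), *DIN7* differed by 0.15 in Δapn1/pMAG and by −0.22 in Δapn1. *PLM2*, the gene of a putative transcription factor and induced by damage, averaged 1.52 ± 0.14 in WT/pMAG, 1.52 ± 0.19 in Δapn1/pMAG and 1.56 ± 0.10 in Δapn1/pMAG/pAPN1, against 1.37 ± 0.12 in Δapn1, 1.40 ± 0.13 in Δapn1/pAPN1 and 1.36 ± 0.07 in wild type (SD, n = 3 each).

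To ask about pYES-MAG with more arrays, its effect was averaged over WT/pMAG minus wild type, Δapn1/pMAG minus Δapn1, and Δapn1/pMAG/pAPN1 minus Δapn1/pAPN1, which share no array. No member met the thresholds, which 3.66% of all genes met, and no member had an adjusted p under 0.05, which 1.38% of all genes had. The unadjusted p was under 0.05 for 6 members by limma and by the methods' analysis of variance, 16.2% of the members, beside 16.3% of all genes. All 6 were higher with pYES-MAG, namely *RAD54* (0.25, 95% interval 0.07 to 0.43, unadjusted p = 0.0095, adjusted p = 0.168), *MSH6* (0.27, 0.00 to 0.54), *RAD59* (0.22, 0.05 to 0.39), *RAD2* (0.21, 0.01 to 0.40), *MEC1* (0.16, 0.03 to 0.28) and *PLM2* (0.15, 0.00 to 0.31). The count of 6 was 3 with median centring, without replicate 3 of Δapn1, and without replicate 1 or replicate 2 of wild type. It was 7 without the 2 doubted arrays, 7 without replicate 3 of WT/pMAG and 8 with array weights. Over all genes 498 such genes were higher (8.8%) and 425 lower (7.51%). The value for *MEC1* rests on 1 of its 9 probe sets, and it was −0.05 when the 9 were averaged. The 95% interval lay within 1.5-fold for all 37 members, compared with 77.7% of all genes, and 25 of 37 differences were above 0, compared with 52.8% of all genes. In the dim class the interval lay within 1.5-fold for 96.4% of genes and 60.1% of differences were above 0. An unadjusted p under 0.05 was reached there by 8.87% of genes, 135 of them higher and 48 lower.

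With array weights in the fit, which gave replicate 1 of Δapn1/pMAG a weight of 0.325, the *RAD54* effect was 0.29 with an adjusted p of 0.0472 (limma). Over all alternatives its adjusted p lay between 0.0472 and 0.707. Within the low array set its value was 0.10.

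**Figure D4:**
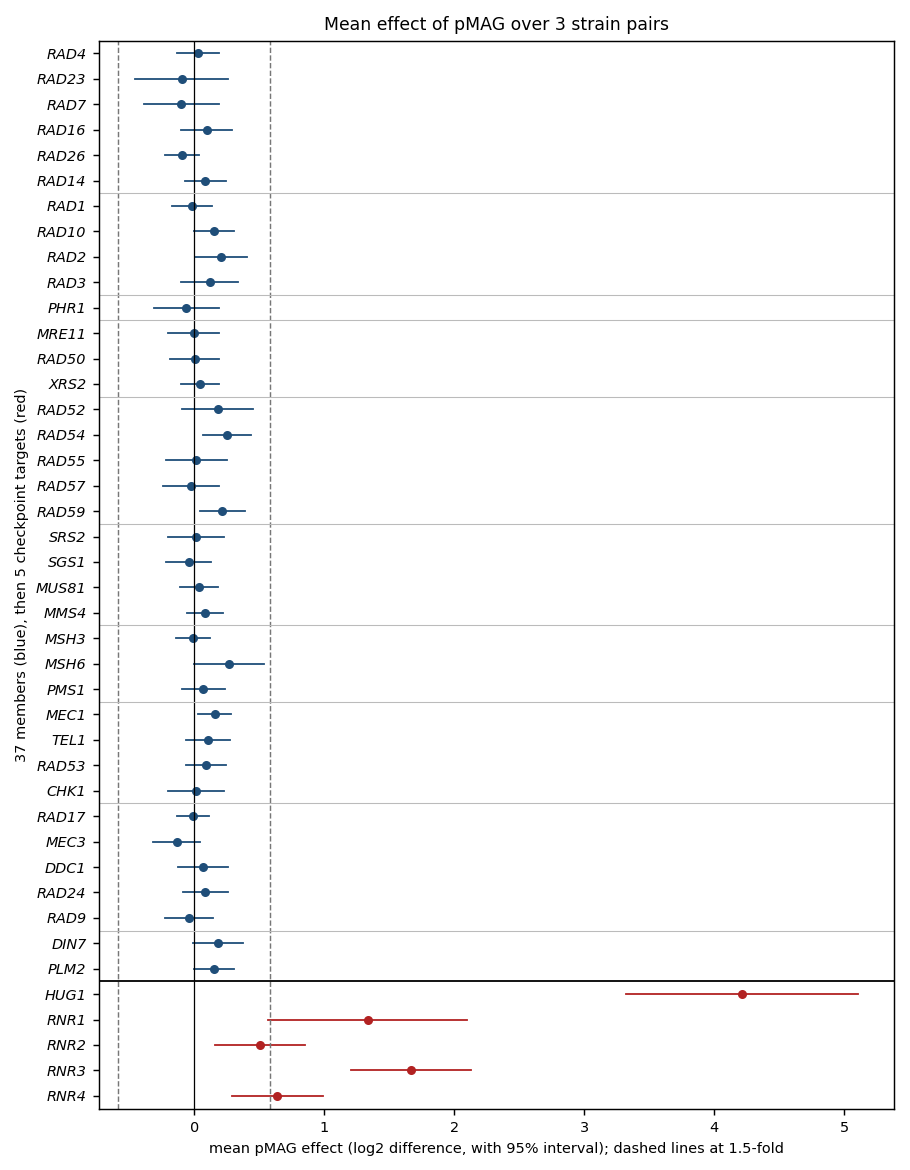
Mean effect of pYES-MAG over 3 pairs of strains that share no array (points, log2 difference with minus without the plasmid) and its 95% interval (bars) for the 37 members in blue and 5 checkpoint targets in red; dashed lines mark 1.5-fold. Every member interval lies between −0.45 and 0.54, inside the dashed lines, while *HUG1* (4.21) and *RNR3* (1.67) lie far to the right.

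The mean effect of the *APN1* plasmid, taken over Δapn1/pAPN1 minus Δapn1 and Δapn1/pMAG/pAPN1 minus Δapn1/pMAG, ranged from −0.10 to 0.26 over the members. No member met the thresholds, which 0.813% of all genes met, and none had an unadjusted p under 0.05 by limma or by the methods' analysis of variance, beside 5.09% of all genes by limma. An adjusted p under 0.05 was reached by 0.0354% of all genes and by no member. The largest was that of *RAD55* (0.26, 95% interval −0.02 to 0.55). Whether the effect of pYES-MAG differed between Δapn1 and wild type was tested as an interaction, in which 0 members had an unadjusted p under 0.05, beside 3.11% of all genes (limma), and 0 met the thresholds, beside 1.94%. The largest were 0.60 for *RAD7* (−0.11 to 1.31) and −0.56 for *RAD55* (−1.13 to 0.00). Only 22 of 37 interaction intervals lay within 1.5-fold, so this comparison was the least precise.

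Of 5 known transcriptional targets of the Mec1 and Rad53 pathway, *HUG1* and the ribonucleotide reductase genes *RNR1* to *RNR4*, 4 met the thresholds in WT/pMAG (6.47% of all genes), 0 in Δapn1 (0.442%), 5 in Δapn1/pMAG (3.66%), 1 in Δapn1/pAPN1 (3.59%) and 5 in Δapn1/pMAG/pAPN1 (3.75%), all upward. In these 5 comparisons an adjusted p under 0.05 was reached only by *HUG1*, in WT/pMAG and Δapn1/pMAG (limma). The arrays of *RNR1* in Δapn1/pMAG and Δapn1/pMAG/pAPN1, and of *RNR4* in Δapn1/pMAG, overlapped those of wild type. *RNR1* did not meet the thresholds in WT/pMAG, and *RNR2* did so in Δapn1/pAPN1 (0.90), a strain without pYES-MAG. Without the 2 doubted arrays the count in Δapn1/pMAG/pAPN1 was 3 and those in the other 4 strains were as before. *HUG1*, a small inhibitor of ribonucleotide reductase repressed by Rfx1 until the checkpoint is active, read 6.31, 5.54 and 5.63 in WT/pMAG, 1.53, 1.18 and 1.44 in Δapn1, 5.13, 6.02 and 7.13 in Δapn1/pMAG, 1.31, 1.27 and 1.11 in Δapn1/pAPN1, and 6.75, 2.51 and 4.11 in Δapn1/pMAG/pAPN1, against 1.03, 1.13 and 1.22 in wild type. All 9 arrays with pYES-MAG lay above the highest control of the same array, and all 3 wild type arrays lay below it, so only a lower bound can be given for each difference. With each wild type array set to its highest control, *HUG1* was higher by at least 4.15 on the log2 scale in WT/pMAG and 4.42 in Δapn1/pMAG. In Δapn1/pMAG/pAPN1 this bound was 2.78 with the doubted replicate 1 included, and it was not computed without that array. The fitted signal differences were 4.70 (adjusted p = 0.0231), 4.97 (adjusted p = 0.0244) and 3.33 (unadjusted p = 3.61e-04, adjusted p = 0.159, limma). The last of these includes the doubted replicate 1 with its 6.75. Without that array it was 2.18, which is less than 2.78, so 2.78 is not a bound for the other arrays. The mean effect of pYES-MAG was 4.21 on *HUG1* and 1.67 on *RNR3*, the damage-inducible large subunit. Genes of stationary phase and stress moved on the same arrays, with 5 of a list of 6 past the thresholds in the mean pYES-MAG effect (up to 4.01) and 4 of 6 in WT/pMAG (up to 4.96), all upward, and their part in the result was not tested.

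A list of 38 further genes of these pathways was also measured. Across the 5 strains 2 of the 38 met the thresholds in at least 1, beside 12.8% of all genes. *RDH54*, a Rad54 relative that acts in recombination, read 1.56, 2.06 and 1.55 in Δapn1/pMAG against 1.15, 0.85 and 0.81 in wild type, and rose by 0.78 (95% interval 0.40 to 1.16, limma unadjusted p = 5.34e-04, adjusted p = 0.158). All 3 wild type arrays and replicate 3 of Δapn1/pMAG lay below the highest control of the same array. With each wild type array set to its highest control, the difference in Δapn1/pMAG was 0.05. On that scale it was −0.33 in WT/pMAG and −0.22 in Δapn1/pMAG/pAPN1, so a rise above control level was hardly measured. The mean pYES-MAG effect on the *RDH54* signal was 0.49, under 1.5-fold, with an adjusted p of 0.0294 (limma). *SSL1*, a subunit of the transcription and repair factor TFIIH, averaged 3.63 ± 0.29 in Δapn1/pAPN1 and 2.99 ± 0.24 in wild type (SD, n = 3 each), and rose by 0.64 (unadjusted p = 0.0339, adjusted p = 0.685). The median difference of the 38 genes was 0.07 in WT/pMAG, 0.01 in Δapn1, 0.13 in Δapn1/pMAG, 0.07 in Δapn1/pAPN1 and 0.10 in Δapn1/pMAG/pAPN1, beside 0.00, −0.01, 0.02, 0.03 and 0.04 over all genes.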

How the data were processed

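The authors hybridized RNA from biological triplicates to Affymetrix Yeast Genome S98 arrays and processed the scans with robust multi-array average (RMA, version not given in the sources used here). The deposited table holds log2 signals, normalized across arrays by the authors, for 9335 probe sets. Of these, 60 were controls, 328 had several gene names and 2443 none, leaving 6504. Genes were represented by the probe set with the highest mean. Strains were compared with limma 3.58.1 in R 4.3.3 (lmFit, eBayes), with 1 mean per strain over all 18 arrays and 12 residual degrees of freedom. Tests were two-sided, and p was adjusted by Benjamini-Hochberg over 6504 probe sets. The thresholds were those of the methods. The fit was tested on simulated data. Replicate numbers come from the labels; deviations from the strain means correlated at 0.37, 0.33 and 0.37 between same-numbered arrays of Δapn1 and wild type, and at no more than 0.21, mostly below 0, for the other strains. Members and lists were chosen with earlier results of these data known. The rule was to name members that met the thresholds or had an F test p under 0.05 (none), and otherwise the 2 with the smallest F p per sub-pathway. The remaining members are also named, outside that rule, some at their largest or non-overlapping difference. Array medians were 1.63 to 1.72, and 3 arrays per strain limit the precision. Descriptions of 2 Δapn1 arrays name other numbers after the gene, while their source labels name apn1. Some genes of these pathways are not reported here. No sequence table was at hand, so no promoter was examined.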

Additional observations from a re-analysis of the deposited data

How the results depend on the processing

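The count of 0 members past the thresholds, in each of the 5 strains, in the mean pMAG and pAPN1 effects, and, by adjusted p, in the F test and in the interaction, was also 0 under the methods' analysis of variance, a fit of the groups compared alone (not run for the mean pMAG effect, the F test or the interaction), renewed quantile normalization, median centring, array weights, the array set as a block, averaged probe sets, removal of the dimmest probe sets (19 members remained), and removal of the 2 doubted arrays; leaving out each replicate in turn gave 0 to 0. With the replicate block the counts were 0 as well. By unadjusted p alone, the block put 1 member under 0.05 in the F test, 1 in the interaction, 1 in the mean pAPN1 effect, 0 in Δapn1/pMAG and 3 in Δapn1/pMAG/pAPN1. On the same scale the F test had 1 under the methods' analysis of variance and array weights and 0 to 2 with an array left out (2 without WT/pMAG replicate 2), and the interaction 1 with array weights or the array set block and 0 to 2 with an array left out (2 without WT/pMAG replicate 2 or Δapn1 replicate 1). The low array set and the missing fold threshold, both chosen after seeing the data, moved counts. In the low array set alone, 2 members passed in WT/pMAG (*RAD23*, −1.04, and *MRE11*, 0.63, for 1 array against 1, with the spread taken from the other strains, as if a lone array varied like theirs) and 2 in Δapn1/pAPN1 (*MRE11*, 0.61, and *RAD55*, 0.61, for 3 arrays against 1). With no fold threshold, 3 passed in WT/pMAG, 1 in Δapn1/pMAG, 3 in Δapn1/pAPN1, 2 in Δapn1/pMAG/pAPN1 and 6 in the mean pMAG effect. Leaving out 1 array, these counts went both down and up. In WT/pMAG they ran from 1 (without its replicate 1) to 4 (without its replicate 2 or wild type replicate 2). In Δapn1/pMAG they ran from 0 to 2 (2 without wild type replicate 3). In Δapn1/pAPN1 they ran from 0 (without its replicate 3 or wild type replicate 1) to 5 (without wild type replicate 3). In Δapn1/pMAG/pAPN1 they ran from 0 (without wild type replicate 2) to 3 (without its replicate 1 or WT/pMAG replicate 3). In the mean pMAG effect they ran from 3 (without Δapn1 replicate 3 or wild type replicate 1 or 2) to 7 (without WT/pMAG replicate 3). Signs reversed for *MEC1* in the mean pMAG effect (−0.052, probe sets averaged) and *RAD54* in WT/pMAG (−0.14, low array set); the cause was not tested. The median member difference ranged over the alternatives from −0.02 to 0.13 in WT/pMAG and from 0.02 to 0.09 for the mean pMAG effect. Signal near the control level limits what 33 of the 37 members can show.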
